A study of Homo sapiens with 8 samples.

Results

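The ligands, receptors and SMAD proteins of transforming growth factor beta (TGF-beta) signalling were followed in uterine leiomyosarcoma cells treated with an inhibitor of the bromodomain proteins BRD9 and BRD7. The group was defined by name as 10 genes: the ligands TGFB1, TGFB2 and TGFB3, the receptors TGFBR1, TGFBR2 and TGFBR3, and SMAD2, SMAD3, SMAD4 and SMAD7. All 10 were among the 60282 genes listed in the count table, and all 10 were among the 14073 genes with enough counts to be tested.

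TGF-beta ligands are secreted as latent complexes bound to the extracellular matrix and act after release. An active ligand brings together the type II receptor (TGFBR2) and the type I receptor (TGFBR1), often after presentation by the co-receptor betaglycan (TGFBR3), and the type I kinase phosphorylates SMAD2 and SMAD3, which enter the nucleus with SMAD4. SMAD7 is an inhibitory SMAD that is itself induced by the pathway and closes a negative feedback loop. In the uterus the pathway is known for driving extracellular matrix deposition in smooth muscle tumours.

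The samples were cultures of SK-UT-1, an established human uterine leiomyosarcoma line, grown in Eagle's minimum essential medium with fetal bovine serum. One group of 4 libraries came from cells given 5 µM TP-472, a small-molecule BRD9/7 inhibitor, for 48 h. The other 4 came from cells given the DMSO vehicle. The study was thus a comparison at 1 dose and 1 time in a cell line, and nothing in the labels says that the 4 replicates of a group were separate cultures. The study's methods state in general that its experiments had biological replicates, without describing those of the libraries, and p-values describe the spread between these libraries. Total estimated counts per library ranged from 32574716 to 38545695. Genes with a count numbered 23325 to 23939 per vehicle library and 25363 to 26211 per TP-472 library, without overlap. Levels are given as CPM (counts scaled to a common library total) after TMM scaling, and differences as log2 fold changes of TP-472 over vehicle from edgeR's quasi-likelihood test, with p-values adjusted by the Benjamini-Hochberg method over the 14073 genes tested. A gene was called when its adjusted p was under 0.05 and its fold change over 1.5. In bulk RNA, fewer cells expressing a gene cannot be told apart from less RNA of that gene per cell.

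Vehicle replicate 3 stood apart from the other libraries. Its median Spearman correlation with the other vehicle libraries was 0.914, against 0.988 to 0.989 for the other 3 vehicle libraries and 0.993 to 0.997 within TP-472. Its most abundant RNA was RPPH1 at 3.08% of counts, whereas RN7SL1 led in the other 7 libraries. Its departure from the mean of the other vehicle libraries followed the GC content of the genes across the table (Spearman's rho 0.765 across genes, which are not independent replicates). Relative to the other vehicle libraries, the median log2 difference of vehicle replicate 3 was -0.76 over the 2249 genes under 40% GC and 1.06 over the 1930 genes of at least 60% GC. Several of the TGF-beta genes departed in the same direction as their GC class. TGFB1, with a GC content of 63.5%, was 4.48 times the mean of the other vehicle libraries, SMAD7 (58.7%) was 2.19 times that mean, and TGFBR1 (39.0%), SMAD4 (41.1%) and SMAD2 (40.2%) were at 0.470, 0.528 and 0.597 of it. TGFB2, which has the lowest GC content of the 10 (38.9%), departed less, at 0.868 of that mean. TGFBR2 (47.4%) and TGFB3 (48.9%) went against their class, at 1.57 and 1.30 times that mean. The median log2 difference over genes of 40 to 50% GC was -0.30. The part of GC content in these departures was not tested gene by gene, and the fold change and call of each of the 10 genes are therefore given with and without this library. For the other pathway and marker genes named as called, the estimate without it is given where the call was lost or the estimate moved furthest, and the rest of these kept their direction and their call.

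**Figure D1:**
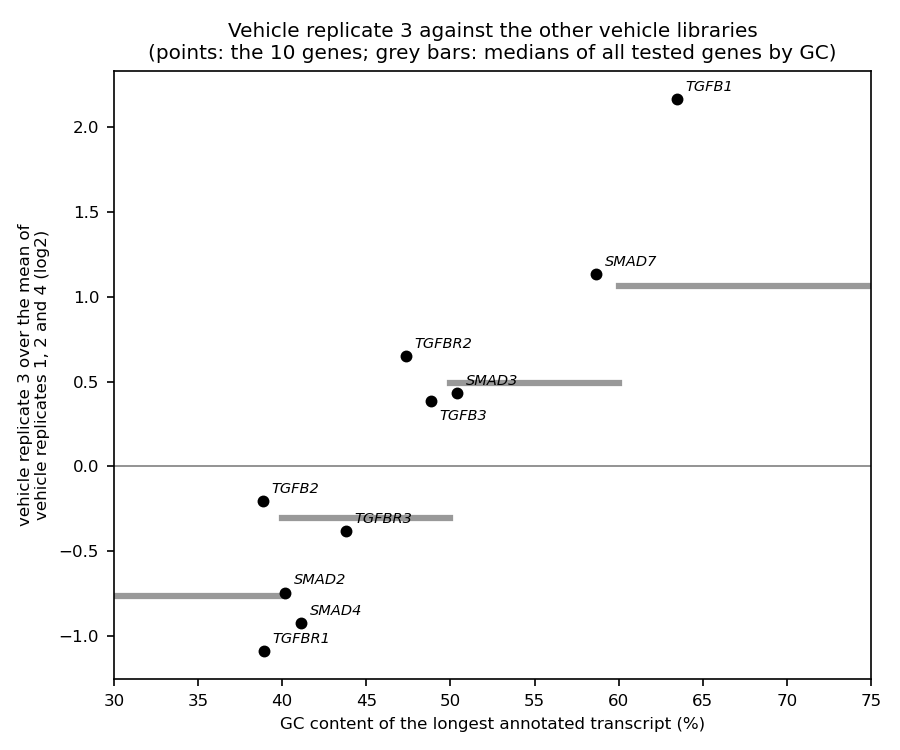
Level of each of the 10 genes in vehicle replicate 3 over the mean of vehicle replicates 1, 2 and 4 (vertical axis, log2) against the GC content of its longest annotated transcript (horizontal axis, percent). Black points are the 10 genes and grey bars are medians of all tested genes in 4 GC classes, the outer classes being drawn only within the axis; TGFB1 and SMAD7 lie highest and TGFBR1 lowest.

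Of the 10 genes, 1 rose and 1 fell by the call rule. SMAD7, the inhibitory SMAD, rose 3.32-fold, and TGFBR3, the betaglycan co-receptor, fell, with a level 1.58-fold lower in TP-472. The other 8 were not called, although all 8 estimates lay below 0. The 2 calls of 10 compare with 26.9% of all genes tested that were called with all 8 libraries (12.0% higher and 14.9% lower). Without vehicle replicate 3 the same 2 genes were called, against a background of 25.5% (12.0% higher and 13.4% lower). With the limit on adjusted p alone, 1 of the 10 was higher and 4 were lower, beside 36.3% of all genes in either direction. On that limit without vehicle replicate 3, 1 was higher and 7 were lower, beside 57.0%. The TP-472 and vehicle libraries did not overlap for 1 gene that was higher and 3 that were lower, where 23.8% of all genes tested were higher and 21.6% lower without overlap. The median log2 fold change of the 10 genes was -0.42, or -0.41 without vehicle replicate 3, and that of all genes tested was -0.03.

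**Figure D2:**
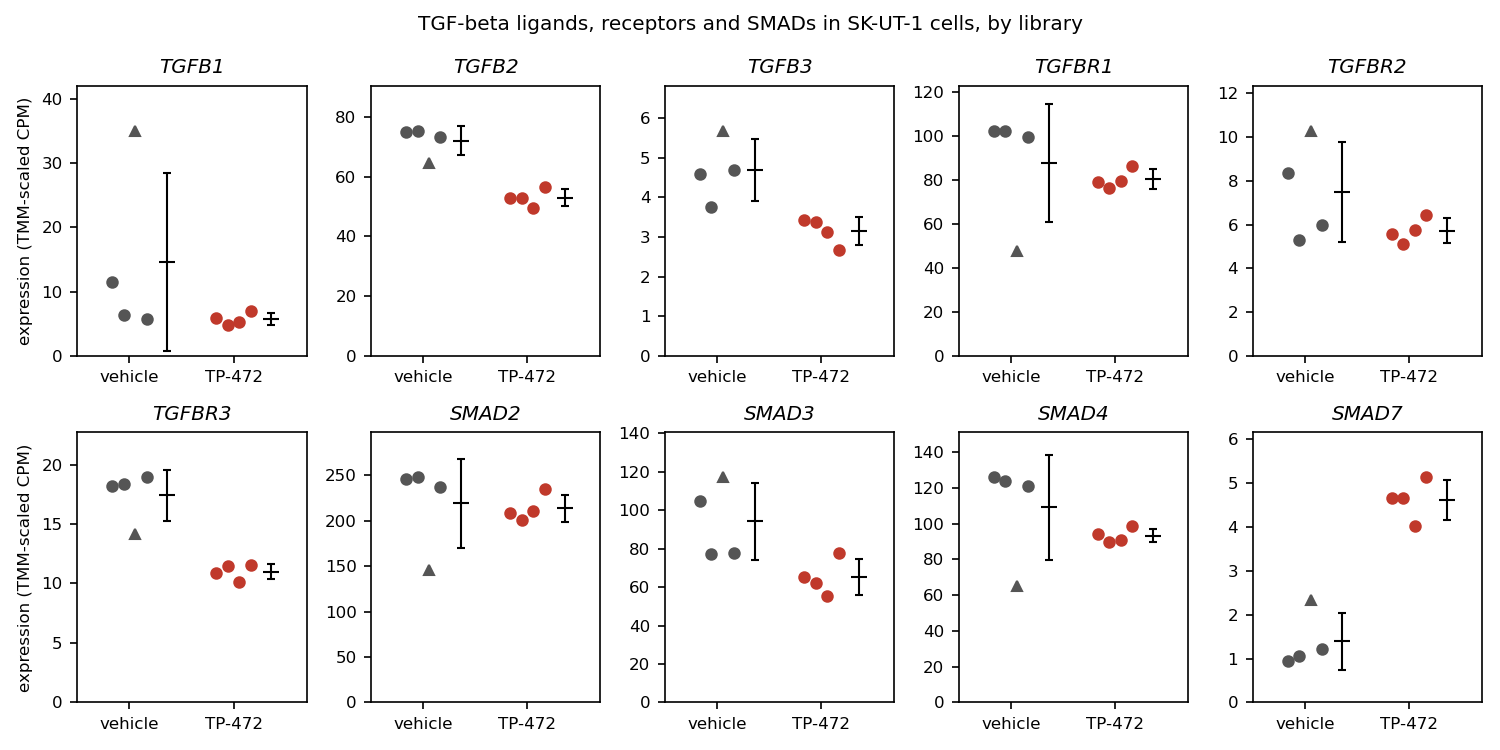
Level of the 10 genes in each library (vertical axes, TMM-scaled CPM, each from 0), with vehicle in grey and TP-472 in red. Triangles are vehicle replicate 3, and the black dash with its bar is the mean ± SD of the 4 libraries beside it; SMAD7 is higher in all 4 TP-472 libraries, and TGFB2, TGFB3 and TGFBR3 are lower in all 4.

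Among the ligands, TGFB2 was the most abundant transcript for its length. Per kilobase of merged exon, its level in vehicle was 14.0 ± 0.971 CPM (SD, n = 4), that of TGFB1 was 4.51 ± 4.27 and that of TGFB3 was 0.953 ± 0.159. The mean of TGFB1 rested largely on vehicle replicate 3: it was 14.6 CPM with that library and 7.81 CPM without it.

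TGFB2 encodes a ligand that depends on betaglycan for high-affinity binding to the type II receptor. Its level was 75.1, 75.2, 64.7 and 73.2 CPM in vehicle replicates 1 to 4 and 52.9, 52.9, 49.4 and 56.7 CPM in TP-472 replicates 1 to 4. The highest TP-472 value was below the lowest vehicle value. The log2 fold change was -0.44 ± 0.10 (SE, adjusted p = 0.00835, edgeR), a level 1.36-fold lower, which passed the limit on adjusted p but not that on the fold change. Without vehicle replicate 3 it was -0.49 (adjusted p = 0.00013, edgeR).

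TGFB3, a ligand found in normal and fibroid myometrium, was expressed at a low level, at 4.60, 3.77, 5.67 and 4.69 CPM in vehicle and 3.42, 3.38, 3.14 and 2.67 CPM in TP-472. The groups did not overlap, and vehicle replicate 2 was nearest to the TP-472 libraries. TGFB3 had a log2 fold change of -0.57 ± 0.17 (SE, adjusted p = 0.0300, edgeR), just short of the fold limit, and -0.47 (adjusted p = 0.020, edgeR) without vehicle replicate 3. Its adjusted p was under 0.05 in 12 of 20 alternative fits.

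TGFB1, the best studied of the ligands, stood at 11.4, 6.29, 35.0 and 5.70 CPM in vehicle and 5.93, 4.85, 5.24 and 7.03 CPM in TP-472. Vehicle replicate 3 was far above every other library, vehicle replicate 1 was also above the whole TP-472 range, and the 2 remaining vehicle libraries lay within the TP-472 range. Its estimate was the lowest of the 10 at -1.34 on the log2 scale but carried the largest standard error, 0.54, and was not called (adjusted p = 0.0816, edgeR). Without vehicle replicate 3 the estimate was -0.44 (adjusted p = 0.14, edgeR).

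TGFBR1, the type I receptor kinase, led the receptors per kilobase at 12.8 ± 3.92 CPM in vehicle, followed by TGFBR3 at 2.0 ± 0.249 and TGFBR2 at 1.59 ± 0.483 (SD, n = 4). The latter pair overlapped in their spread, but only through vehicle replicate 3. Without it, their shares of the receptor level per kilobase in vehicle were 11.6 ± 0.497% for TGFBR3 and 7.58 ± 1.66% for TGFBR2 (SD, n = 3).

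TGFBR3 encodes betaglycan, which binds all 3 ligands and has no kinase domain. The gene (chr1:91680343-91906335, minus strand, GENCODE release 29 on GRCh38) stood at 18.2, 18.3, 14.2 and 18.9 CPM in vehicle and at 10.9, 11.4, 10.2 and 11.5 CPM in TP-472. The groups did not overlap, and vehicle replicate 3 was the lowest of its group. The log2 fold change was -0.66 ± 0.13 (SE, adjusted p = 0.00502, edgeR) with all libraries and -0.75 (adjusted p = 4.3e-05, edgeR) without vehicle replicate 3. TGFBR3 was called in all 20 alternative fits, with log2 fold changes from -0.77 to -0.62.

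TGFBR1 stood at 102.2, 102.1, 47.6 and 99.3 CPM in vehicle and at 79.1, 76.3, 79.7 and 86.5 CPM in TP-472. Vehicle replicates 1, 2 and 4 were above the whole TP-472 range, and vehicle replicate 3 was below them all. With all libraries the log2 fold change was -0.13 ± 0.22 (SE, adjusted p = 0.674, edgeR), and without vehicle replicate 3 it was -0.33 ± 0.06 (adjusted p = 0.0012, edgeR), past the limit on adjusted p and not past that on the fold.

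TGFBR2, the constitutively active type II kinase, stood at 8.34, 5.32, 10.3 and 5.99 CPM in vehicle and at 5.56, 5.10, 5.77 and 6.45 CPM in TP-472. The groups overlapped. Its log2 fold change was -0.39 ± 0.22 (SE, adjusted p = 0.186, edgeR), and -0.19 (adjusted p = 0.33, edgeR) without vehicle replicate 3, so that no difference larger than the spread between libraries was found.

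SMAD7 was the lowest of the SMADs and showed the largest rise among the 10 genes. The gene lies at chr18:48919853-48952052 (minus strand). Its level was 0.942, 1.06, 2.34 and 1.21 CPM in vehicle, resting on 34, 37, 81 and 43 counts, and 4.66, 4.65, 4.02 and 5.13 CPM in TP-472, resting on 180, 165, 145 and 194 counts. The groups were well separated, and vehicle replicate 3 was the highest vehicle library. The rise was 1.73 ± 0.29 on the log2 scale (SE, adjusted p = 0.00246, edgeR). Without vehicle replicate 3 it was 2.10 ± 0.16 (adjusted p = 8.9e-06, edgeR), a 4.30-fold difference. SMAD7 was called in all 20 alternative fits, with log2 fold changes from 1.58 to 2.10.

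SMAD3, the receptor-activated SMAD that binds DNA directly, stood at 105.0, 77.4, 117.0 and 77.5 CPM in vehicle and at 65.5, 61.9, 55.2 and 77.7 CPM in TP-472. TP-472 replicate 4 lay at the level of vehicle replicates 2 and 4, and TP-472 replicates 1, 2 and 3 lay under the whole vehicle range. The log2 fold change was -0.53 ± 0.17 (SE, adjusted p = 0.0371, edgeR), under the fold limit, and -0.41 (adjusted p = 0.026, edgeR) without vehicle replicate 3. In 14 of 20 alternative fits its adjusted p was under 0.05.

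SMAD4, the common partner of the activated SMADs, stood at 125.9, 124.0, 65.3 and 121.0 CPM in vehicle and at 94.1, 89.9, 91.0 and 98.5 CPM in TP-472. As for TGFBR1, 3 vehicle libraries were above the whole TP-472 range and vehicle replicate 3 was below them. SMAD4 had a log2 fold change of -0.22 ± 0.20 (SE, adjusted p = 0.385, edgeR) with all libraries and -0.41 ± 0.06 (adjusted p = 0.00026, edgeR) without vehicle replicate 3.

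SMAD2, the other receptor-activated SMAD, stood at 246.5, 247.8, 145.6 and 237.1 CPM in vehicle and at 208.6, 200.7, 210.7 and 234.8 CPM in TP-472. TP-472 replicate 4 came close to vehicle replicate 4, and vehicle replicate 3 was the lowest of all. For SMAD2 the log2 fold change was -0.04 ± 0.17 (SE, adjusted p = 0.879, edgeR), and -0.19 ± 0.07 (adjusted p = 0.036, edgeR) without vehicle replicate 3. Its direction turned, to between 0.0026 and 0.027, when vehicle replicate 1, 2 or 4 was left out.

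**Figure D3:**
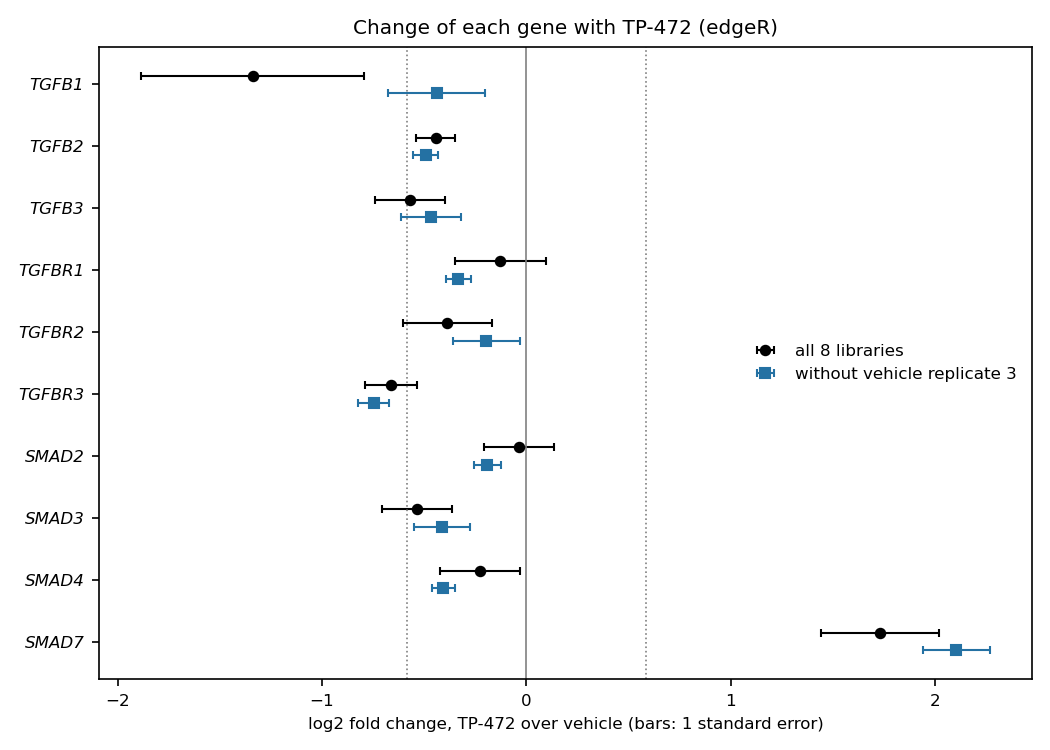
Log2 fold change of TP-472 over vehicle (horizontal axis) for the 10 genes, with all 8 libraries (black circles) and without vehicle replicate 3 (blue squares). Bars are 1 standard error and dotted lines mark the fold limit of 1.5; SMAD7 lies to the right of the upper line, and the bars of TGFBR1, SMAD2 and SMAD4 are shorter without vehicle replicate 3.

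Within each family, the shares of the summed level per kilobase do not depend on the scaling between libraries. SMAD7 made up 0.667, 0.846, 2.09 and 0.980% of the 4 SMADs in vehicle and 4.40, 4.60, 4.08 and 4.33% in TP-472. The ranges did not overlap, and the mean was 1.15 ± 0.643% in vehicle and 4.35 ± 0.215% in TP-472 (SD, n = 4 each). Without vehicle replicate 3 the vehicle mean was 0.831 ± 0.157%. Without division by length the means were 0.355% and 1.22%. The share of TGFBR3 among the receptors was 12.5 ± 1.81% in vehicle, or 11.6 ± 0.497% without that library, and 8.90 ± 0.598% in TP-472. The lowest vehicle library, at 11.1%, was above the highest TP-472 library, at 9.71%. TGFB2 made up 74.0 ± 15.6% of the ligands in vehicle, or 81.6 ± 4.39% without vehicle replicate 3, and 81.0 ± 1.04% in TP-472. These shares did not differ beyond the spread of the vehicle libraries in either case. These shares rest on merged exon lengths, which are long for SMAD2 (36366 bp against 13123 bp for SMAD4) because they join every annotated transcript.

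Short stretches of promoter sequence are shown for SMAD7, which rose, and for the main ligand TGFB2, because SMAD3 and SMAD4 are known to bind the letters CAGAC. RefSeq promoter windows of 300 bases (250 before to 50 after a start, assembly GRCh38.p14) matched all 10 genes, and the first window listed was used for each gene. CAGAC, read on both strands, was found in 5 of the 10 (TGFB2, TGFB3, TGFBR1, SMAD3 and SMAD7), beside 45.0% of all 27305 windows. The AP-1 letters TGACTCA, also read on both strands, were found in none of the 10 and in 4.92% of all windows. Both SMAD7 sites lie inside the gene as GENCODE release 29 draws it, whose longest form starts further upstream. The SMAD7 window held CAGAC at 217 and at 128 bases before the start (minus strand). The TGFB2 window (plus strand) held it at 243 and at 53 bases before the start of that window's transcript. The first of these lies too near the edge of the window to be printed with its flanks. GENCODE release 29 starts TGFB2 at chr1:218346235, so the printed site lies upstream of and outside the gene as drawn there. Capitals mark CAGAC.
SMAD7, chr18:48951168-48951192: cggacgccccCAGACctctgaggtt
SMAD7, chr18:48951079-48951103: cttattttgcCAGACgtctcatgcg
TGFB2, chr1:218345273-218345297: ttgttgaaggCAGACacgtggttca
Such a match describes the letters and not a bound site. TGFBR3, the called gene that fell, had neither motif in its window.

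The wider pathway was covered by 7 lists with 149 genes in all, of which 117 were tested. Of these, 20 were called higher and 17 lower, or 31.6% of the tested genes beside the 26.9% of all genes given above. Without vehicle replicate 3, 25 were higher and 16 lower, or 35.0% beside 25.5% of all genes. The median log2 fold change of the 117 genes was -0.06.

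Among SMAD co-repressors, ubiquitin ligases and phosphatases, 19 of 20 genes were tested, 3 were called higher and none lower, both with and without vehicle replicate 3. That is 15.8% of those tested, below the 26.9% of all genes, or 25.5% without vehicle replicate 3. With total-count scaling and without vehicle replicate 2 or 4, 1 was called lower. PMEPA1, a membrane protein that sequesters receptor-activated SMADs, stood at 2.69, 1.81, 3.53 and 1.91 CPM in vehicle and at 5.72, 8.29, 6.27 and 7.16 CPM in TP-472, without overlap. Its log2 fold change was 1.46 ± 0.24 (SE, adjusted p = 0.0024, edgeR). SKIL, which encodes the co-repressor SnoN, stood at 41.2, 37.3, 20.7 and 35.8 CPM in vehicle and at 77.8, 77.5, 77.3 and 96.7 CPM in TP-472. The groups were well separated, with TP-472 replicate 4 the highest, and the log2 fold change was 1.29 ± 0.20 (SE, adjusted p = 0.0020, edgeR). SMURF2, a ubiquitin ligase that SMAD7 brings to the receptor, stood at 113, 121, 82.7 and 118 CPM in vehicle and at 257, 252, 255 and 290.4 CPM in TP-472. Its groups were separated too, with a log2 fold change of 1.28 ± 0.14 (SE, adjusted p = 0.00033, edgeR). SMAD6, the other inhibitory SMAD, was at 24.0, 20.7, 38.1 and 20.7 CPM in vehicle and 18.2, 19.4, 17.5 and 17.3 CPM in TP-472. It was not called and its estimate pointed the other way, at -0.51 ± 0.20 (SE, adjusted p = 0.072, edgeR). Vehicle replicate 3 was the highest library for SMAD6, and this estimate includes it.

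Of 14 co-receptors and receptor-associated proteins, 12 were tested, 3 were called higher and 1 lower, 33.3% beside the 26.9% of all genes. BAMBI, a decoy receptor without a kinase domain, rose from a vehicle mean of 2.43 CPM to a TP-472 mean of 4.96 CPM, with a log2 fold change of 1.03 ± 0.19 (SE, adjusted p = 0.0036, edgeR). NRP2, a neuropilin that binds TGF-beta, rose by 1.4 on the log2 scale from a level under 1 CPM in every vehicle library. STRAP, which binds the receptors together with SMAD7, rose by 0.59, but its change without vehicle replicate 3 was 0.48 and under the fold limit. CD109, a membrane-anchored co-receptor that dampens the signal, fell by 1.22 on the log2 scale, from 161, 114, 105 and 110 CPM to 51.6, 48.5, 45.3 and 64.8 CPM. In the activin and nodal branch 5 of 16 genes were tested, of which 1 was called higher and 1 lower (40% beside the 26.9% of all genes). With no filter or by DESeq2, 6 were called higher, and without vehicle replicate 1 none was called lower. The related type II receptors moved apart. ACVR2A rose by 1.07 ± 0.18 and ACVR2B fell by 0.62 ± 0.12 on the log2 scale (SE, adjusted p = 0.0023 and 0.0043, edgeR). Most activin ligands were close to 0 in these cells.

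Genes of latency and activation were called lower and not higher with all libraries and this filter, although 1 was called higher without a filter, with filterByExpr and by DESeq2. Of 22 genes, 13 were tested and 5 were called lower (38.5% beside the 14.9% of all genes called lower). That count was 4 without vehicle replicate 3 (30.8% beside 13.4% of all genes called lower). It was 3 with limma-voom or the replicate block, and 2 without vehicle replicate 1 or TP-472 replicate 2. LTBP4, which holds latent TGF-beta in the matrix, stood at 62.8, 38.9, 136.9 and 38.1 CPM in vehicle and at 21.6, 18.4, 18.4 and 18.6 CPM in TP-472. Vehicle replicate 3 was the highest, the groups did not overlap, and the log2 fold change was -1.85 ± 0.39 (SE, adjusted p = 0.0073, edgeR), or -1.28 (adjusted p = 0.00017, edgeR) without that library. MMP14, a membrane-bound matrix metalloproteinase, fell by 1.29 on the log2 scale, from 118, 120, 187 and 114 CPM to 60.8, 53.9, 56.9 and 48.7 CPM. LTBP2, a matrix protein of the same family as LTBP4, fell by 1.10 and by 0.63 without vehicle replicate 3, and was called in 12 of 20 alternative fits. FURIN, the convertase that cleaves the TGF-beta precursor, was at 11.9, 11.2, 31.0 and 10.7 CPM in vehicle and 8.39, 8.26, 7.88 and 7.79 CPM in TP-472. Its change of -1.0 became -0.48 without vehicle replicate 3 and then missed the fold limit. FBN1, the microfibril protein fibrillin-1, was the remaining called gene, at -0.59, and is named here after its values were seen. The median log2 fold change of the 13 genes was -0.59, or -0.36 without vehicle replicate 3.

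Among nuclear partners of SMADs, 17 of 19 genes were tested, 3 were called higher and 1 lower, or 5 and 1 without vehicle replicate 3. The number called higher was 2 with total-count scaling, with the replicate block and without vehicle replicate 1, 2 or 4 or TP-472 replicate 1, 2 or 4. It was 5 with quality weights or the GC trend removed, and 4 with the GC trend removed and the block. The share called was 23.5% beside the 26.9% of all genes, or 35.3% beside 25.5% without vehicle replicate 3. The number called lower was 0 with total-count scaling and with the replicate block, with or without the GC trend removed. It was also 0 without vehicle replicate 1 or TP-472 replicate 1, 2 or 3. With the GC trend alone removed or without vehicle replicate 4 it was 2. It was 3 without a filter, by DESeq2, on adjusted p alone and without vehicle replicate 2. ATF3, a stress-induced bZIP factor, rose by 1.64 ± 0.13, ETS1 by 0.96 ± 0.15 and RUNX1 by 0.83 ± 0.25 on the log2 scale (SE, adjusted p = 8.4e-05, 0.0021 and 0.031, edgeR), of which RUNX1 was called in 11 of 20 alternative fits. RUNX2 fell by 0.72, although TP-472 replicate 4, at 6.47 CPM, lay within the vehicle range. Of the 18 kinases and adaptors outside the SMAD route, all were tested and 3 were called lower, 16.7% beside 14.9% of all genes, while 1 was called lower and 2 higher once the GC trend was removed. MAP2K6, an activator of p38 kinases, stood at 46.4, 39.4, 30.5 and 38.1 CPM in vehicle and at 10.0, 10.5, 10.5 and 10.8 CPM in TP-472. No library overlapped, and the log2 fold change was -1.88 ± 0.14 (SE, adjusted p = 6.8e-05, edgeR). TAB1, a partner of the kinase TAK1, fell by 0.93, and the adaptor SHC1 fell by 0.69, of which SHC1 missed the fold limit without vehicle replicate 3, at -0.58. In that fit 1 gene of this list was higher and 2 were lower, or 16.7% beside 25.5% of all genes.

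**Figure D4:**
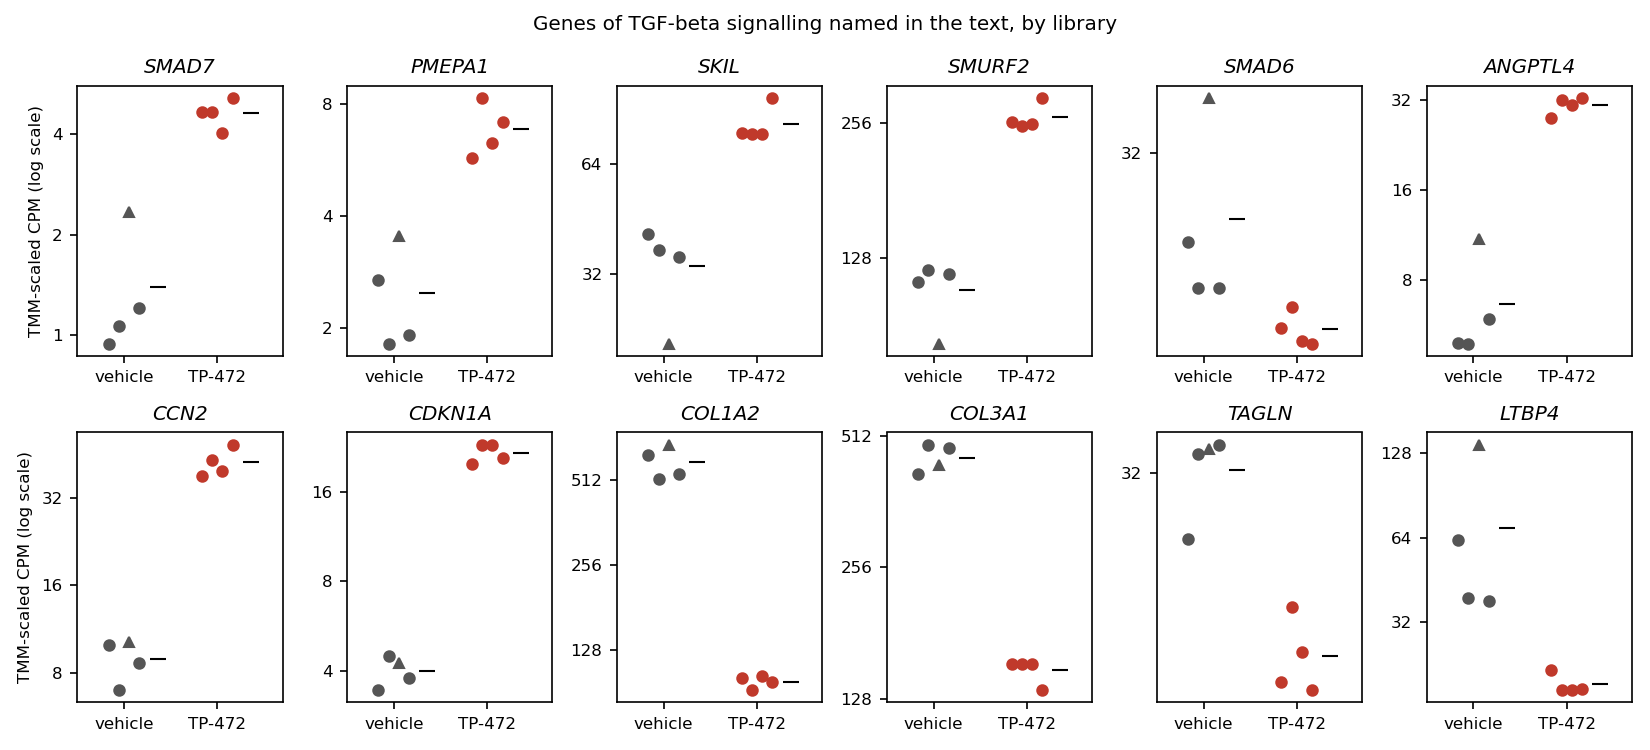
Levels by library (vertical axes, TMM-scaled CPM on log scales that do not start at 0) of 12 pathway genes picked from those named in the text, all of them called except SMAD6. Vehicle is grey with replicate 3 as a triangle, TP-472 is red, and dashes are means of 4 libraries. No gene shown has overlapping groups. Of all genes tested, 23.8% were higher and 21.6% lower without overlap.

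Known early target genes of TGF-beta were called in both directions. Of 44 genes, 37 were tested, 13 were called higher and 7 lower, 54.1% beside the 26.9% of all genes. Without vehicle replicate 3 there were 15 and 8, or 62.2% beside 25.5%. Some of them stand in the lists above as well (SKIL, PMEPA1, BAMBI and LTBP2). Like the other lists, this list was chosen with earlier results of these data known, and its share was not tested against chance. The called genes with the largest rises were CDKN1A, an inhibitor of cyclin-dependent kinases, CCN2, a matricellular growth factor, ANGPTL4, a secreted inhibitor of lipoprotein lipase, and BHLHE40, a transcriptional repressor. CDKN1A stood at 3.44, 4.48, 4.26 and 3.77 CPM in vehicle and at 19.9, 23.0, 23.1 and 20.7 CPM in TP-472, a log2 fold change of 2.44 ± 0.14 (SE, adjusted p = 2.1e-05, edgeR). CCN2 stood at 9.92, 6.96, 10.2 and 8.60 CPM in vehicle and at 38.0, 43.4, 39.8 and 48.9 CPM in TP-472, a log2 fold change of 2.25 ± 0.16. ANGPTL4 rose by 2.21 (2.55 without vehicle replicate 3) and BHLHE40 by 2.01 on the log2 scale.

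The targets that fell included collagens. COL1A2, a chain of type I collagen, stood at 626, 516, 680.2 and 535 CPM in vehicle and at 101.5, 92.2, 103.1 and 98.3 CPM in TP-472. That is a log2 fold change of -2.58 ± 0.13 (SE, adjusted p = 1.7e-05, edgeR) with wide separation of the groups. COL3A1, the chain of type III collagen, fell by 1.62 ± 0.11, from 420.1, 490, 439 and 483 CPM to 154.0, 153, 154.0 and 134 CPM. COL1A1, the other type I chain, was at 9.25, 3.02, 21.9 and 2.59 CPM in vehicle and 2.07, 1.75, 1.30 and 2.09 CPM in TP-472, so that its log2 fold change of -2.35 became -1.46 without vehicle replicate 3. TGFB1I1, which encodes the focal adhesion protein Hic-5, fell by 1.73, or by 1.05 without that library. FN1, the matrix protein fibronectin, went the opposite way at low level and rose by 1.16 ± 0.21 on the log2 scale.

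**Figure D5:**
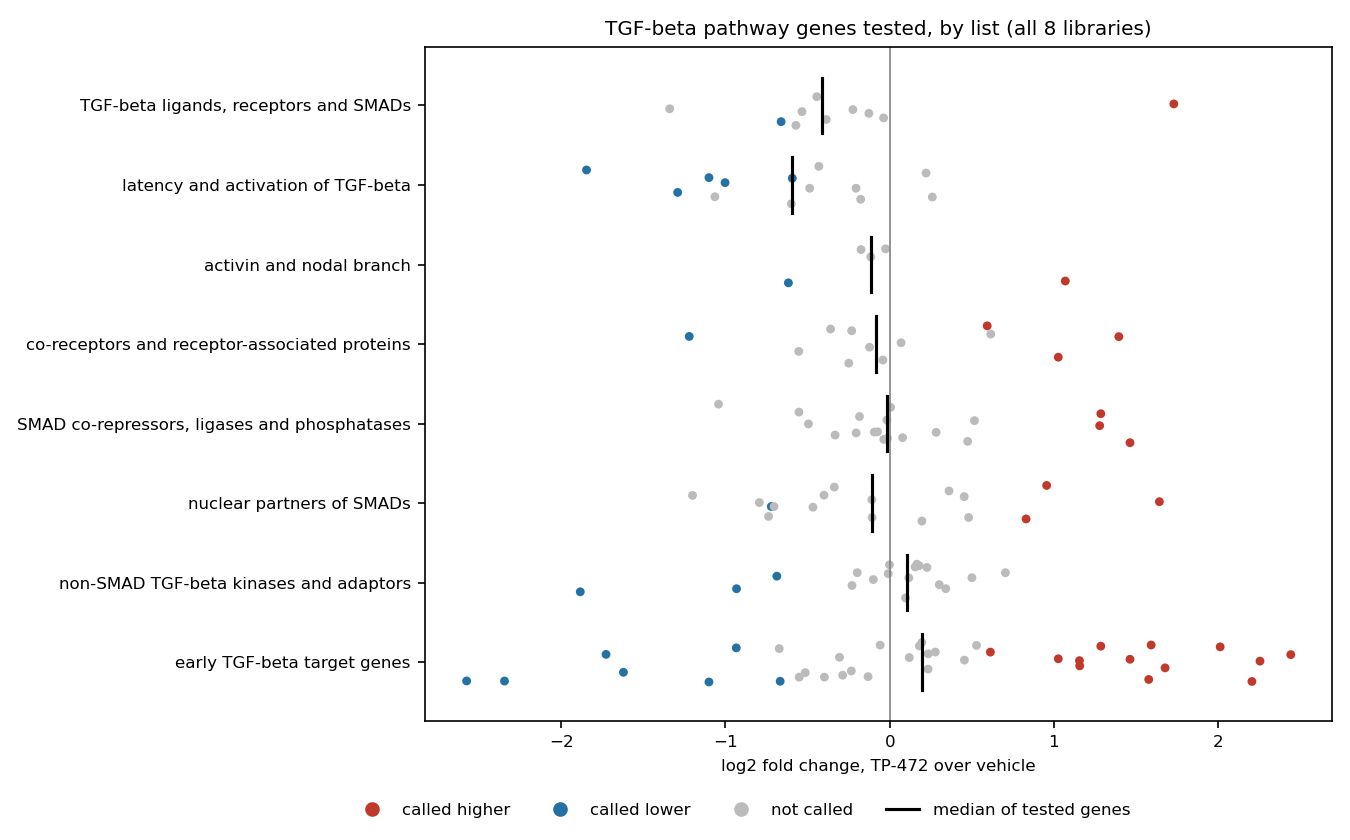
Log2 fold change of TP-472 over vehicle (horizontal axis, all 8 libraries) of every tested gene in the 10-gene group and in the 7 pathway lists (rows). Red is called higher, blue called lower, grey not called, and the black line is the median of the row; vertical scatter within a row has no meaning, and the called genes of the latency row lie to the left of 0.

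Markers of the labelled tissue were partly present. Of 10 smooth muscle markers, ACTA2, TAGLN, CALD1 and SMTN were expressed, with CALD1 the most abundant (178 to 211 CPM in vehicle), whereas the defining markers MYH11, ACTG2 and MYOCD were at or near 0 and CNN1 was between 0.942 and 1.60 CPM in vehicle. Of the 7 that were tested, 3 were called lower with TP-472 (42.9% beside the 14.9% of all genes called lower). Without vehicle replicate 3, 4 were called lower (57.1% beside 13.4%). DES, the muscle intermediate filament desmin, stood at 3.49, 3.31, 3.01 and 3.18 CPM in vehicle and at 0.725, 0.620, 0.777 and 0.396 CPM in TP-472 (log2 fold change -2.36), and LMOD1 and TAGLN fell by 1.84 and 0.67. TAGLN and ACTA2, which are also counted among the TGF-beta targets, were at 19.1, 23.0, 20.5 and 18.7 CPM and at 112.3, 112.0, 108.8 and 104.7 CPM in TP-472, under the whole vehicle range. ACTA2 was not called (log2 fold change -0.55) but was called without vehicle replicate 3 (-0.59). The summed level of the 10 markers was 439, 479, 524 and 481 CPM in vehicle and 380, 378, 373 and 371 CPM in TP-472.

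Defining markers of endothelial cells, and those of leukocytes other than CD68, were at or near 0. The 5 endothelial markers summed to 0.0831, 0.144, 0.116 and 0.112 CPM in vehicle and 0.414, 0.592, 0.499 and 0.687 CPM in TP-472, and none was tested. VWF was the most abundant of them in vehicle and CDH5 and KDR were at 0 in all vehicle libraries. The 6 leukocyte markers summed to between 7.15 and 8.54 CPM in vehicle and between 9.83 and 13.0 CPM in TP-472, nearly all of it CD68, the single marker tested. CD68 passed the limit on adjusted p without overlap of the groups but not the fold limit, its log2 estimate being 0.47 (adjusted p = 0.031, edgeR). PTPRC and CD3E were at 0 in every vehicle library. Of 6 fibroblast markers 4 were tested, and PDGFRB and COL1A1 fell while DCN and LUM were at or near 0. The other tested markers, THY1 and PDGFRA, had estimates of 0.25 and 0.20 and were not called. PDGFRB, a growth factor receptor, fell by 2.33 on the log2 scale (2.03 without vehicle replicate 3), from 13.8, 10.7, 22.4 and 10.5 CPM to 3.52, 2.62, 2.77 and 2.54 CPM. The fibroblast markers summed to 54.6, 51.9, 102.8 and 54.0 CPM in vehicle and 57.5, 57.5, 56.0 and 48.6 CPM in TP-472, with THY1 the most abundant. Of 6 epithelial markers 3 were tested, KRT18 rose by 1.08 and KRT19 fell by 0.85, and EPCAM stayed under 1 CPM in every library. Their sum was 18.2, 18.4, 24.0 and 19.3 CPM in vehicle and 25.1, 27.8, 25.5 and 21.1 CPM in TP-472, most of it KRT18 in TP-472. Of the 4 mesenchymal markers, which are all tested, VIM was the most abundant and was not called (log2 fold change -0.41, adjusted p = 0.098, edgeR), and they summed to 2286, 2186, 3572 and 2248 CPM in vehicle and 1950.2, 1888, 2025 and 1923 CPM in TP-472. The part of any of these in the TGF-beta results was not tested.

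The transcripts of the inhibitor's targets were not called. BRD9 was at 72.1, 66.1, 114.5 and 67.8 CPM in vehicle and 70.7, 70.3, 68.9 and 76.1 CPM in TP-472, a log2 fold change of -0.16 ± 0.18 (SE, adjusted p = 0.486, edgeR), which turned to 0.06 without vehicle replicate 3, the library far from the others. BRD7 was at 57.0, 56.3, 56.0 and 55.6 CPM in vehicle and 60.4, 57.5, 61.3 and 63.9 CPM in TP-472. The groups did not overlap but lay close together, and its log2 fold change of 0.11 ± 0.09 was not called (SE, adjusted p = 0.324, edgeR).

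For the called genes, the genes with the most similar pattern over the 8 libraries are given as a description, since genes that differ between 2 groups correlate over them. For SMAD7 they were ARC, BRD2 and P2RX5, each with a Pearson correlation of 0.995 of log2 CPM. BRD2, which encodes a bromodomain protein of the BET family, had a vehicle mean of 225.9 CPM and a TP-472 mean of 307.9 CPM, under the fold limit (log2 fold change 0.45). For TGFBR3 they were RBMS3 (0.993), EPHA4 (0.992) and DDR2 (0.991). DDR2, a collagen receptor kinase, had a mean of 364 CPM in vehicle and 201 CPM in TP-472. Correlations over 0.95 were reached by 266 genes for SMAD7 and 260 for TGFBR3.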

How the data were processed

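RNA of SK-UT-1 cells was sequenced in 8 libraries, 4 per group, grouped by the treatment given in the labels. The values deposited by the authors are estimated counts per gene: strand-specific total RNA libraries were quantified with Salmon 1.4.0 (submitters' processing notes; build GRCh38) and summed to genes with tximport and GENCODE release 34, without normalization. No per-sample column was left unused, and the table holds no column of the authors' own comparisons. The estimates were rounded. Genes above 1 CPM in 4 or more libraries were scaled by TMM and tested with edgeR 4.0.16 (quasi-likelihood, group only) in R 4.3.3, with Benjamini-Hochberg adjustment over 14073 genes. Calls needed an adjusted p under 0.05 and a fold change over 1.5. DESeq2 1.42.0 and limma 3.58.1 (voom) served as alternatives, beside other scalings, filters, GC correction, a replicate block and leaving out each library. Standard errors came from the fold change and the F statistic. On simulated data with the real means and library sizes, in which 200 of 14073 genes had been changed, 94 of 99 genes changed by 2 and 60 of 101 changed by 1 on the log2 scale were called, with 7 unchanged genes called. The simulated counts were drawn independently for each gene, without a library that departs by GC content. In the real data 26.9% of genes were called. These rates are therefore not estimates for the real libraries.

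No 2 libraries were copies: the lowest mean chi-square per gene between any pair was 12.8. Gene lengths and GC content came from GENCODE release 29 on the same build, and 99.3% of tested genes had a GC value. Promoter windows came from RefSeq. Named genes were the 10 members, BRD9 and BRD7, all cell type markers, up to 4 called genes per direction and pathway list with the largest changes and a mean of at least 1 CPM, SKIL, PMEPA1 and SMAD6, and for each of the called genes with the largest rise and fall the 3 most correlated genes. Genes outside this rule are said to be so. A result for 1 further gene is not reported here. The members and lists were chosen with earlier results of these data known, so no p-value is given over a list.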

Additional observations from a re-analysis of the deposited data

Results flagged for a closer look

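In 42 genes of the group, the pathway lists and the inhibitor targets, the highest and lowest library of each group of 4 were compared with the rest. A library far from the others was found in 18 of 84 groups. Chance gives about 1 in 20 for a single group, but these groups share the same 8 libraries and are not independent. The count was therefore not tested against chance. Vehicle replicate 3 accounted for 11 of the 18, standing high in 7 and low in 4. The 4 low ones were members of the TGF-beta group: TGFBR1 at 47.6, TGFBR3 at 14.2, SMAD2 at 145.6 and SMAD4 at 65.3 CPM. It stood high for MMP14 (187.1 CPM), FURIN (31.0 CPM), TAB1 (38.4 CPM), SHC1 (396.6 CPM), ANGPTL4 (10.9 CPM), BHLHE40 (14.7 CPM) and BRD9 (114.5 CPM). Vehicle replicate 1 stood high for CD109 at 161.3 CPM. TP-472 replicate 1 stood high for LTBP4 at 21.6 CPM. TP-472 replicate 4 stood high for SKIL (96.7 CPM), SMURF2 (290.4 CPM), RUNX2 (6.47 CPM) and TGFB1I1 (13.3 CPM) and low for COL3A1 (133.8 CPM). What set these libraries apart was not tested.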

How the results depend on the processing

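SMAD7 and TGFBR3 kept their direction and their call in all 20 alternatives, and TGFBR1, TGFBR2, SMAD2 and SMAD4 stayed uncalled in all 20. TGFB1, TGFB2, TGFB3 and SMAD3 were called in some (values on the log2 scale). TGFB1 was called without a filter (-1.31) by DESeq2 (-1.32) and without vehicle replicate 2 or 4, and ranged from -1.61 to -0.44 when each library was left out in turn. Its estimate was smaller with the GC trend removed (-0.66, or -0.55 with the block as well), with a replicate block (-0.92), with limma-voom (-0.93) and with quality weights (-0.18). TGFB2 was called after removal of the GC trend (-0.63) and with GC trend and replicate block together (-0.61). TGFB3 was called with upper-quartile scaling (-0.59), total-count scaling (-0.61), the GC trend removed (-0.60), the GC trend removed with the replicate block (-0.60) and without vehicle replicate 2, and ranged from -0.66 to -0.47 with a library left out. With the replicate block its adjusted p was 0.087 and that of SMAD3 was 0.095 (edgeR). With a library left out, SMAD3 ranged from -0.63 to -0.41 (-0.34 with quality weights) and was called without vehicle replicate 2, vehicle replicate 4 or TP-472 replicate 4. SMAD2 ranged from -0.19 to 0.03 with a library left out (-0.21 with quality weights), turning to 0.024, 0.027 and 0.0026 without vehicle replicates 1, 2 and 4.

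The number of the 10 genes called, 2 in the main analysis, was 4 with the GC trend removed with or without the block, 5 on adjusted p alone and 2 to 5 with a library left out (5 without vehicle replicate 2, 4 without vehicle replicate 4). Genes called lower numbered 2 with upper-quartile scaling, total-count scaling, no filter or DESeq2, 3 with the GC trend removed, 4 on adjusted p alone and 1 to 4 with a library left out (2 without TP-472 replicate 4). Over all genes, DESeq2 called 2695 higher against 1693, and 1387 to 2399 were called lower with a library left out against 2096, the lowest without TP-472 replicate 3. Without division by length, the shares were 9.28% for TGFB1 and 85.6% for TGFB2 in TP-472, and in vehicle and TP-472 respectively 15.9% and 11.3% for TGFBR3, 51.2% and 56.7% for SMAD2 and 0.355% and 1.22% for SMAD7. Except where the alternative itself drops libraries, the cause was not tested.

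Deviations of same-numbered libraries from their group means correlated at -0.06, 0.12, -0.17 and -0.18, and 1 of 4 numbers matched itself best. This check cannot decide whether the replicate numbers pair the libraries. It has 4 libraries per group, and the vehicle deviations are taken from a mean that includes vehicle replicate 3. With a replicate block, 2 of the 10 genes and 3055 of all genes were called. At about 1 CPM, as for SMAD7 in vehicle, a library gives as few as 34 counts, which limits the precision of its fold.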
